A study of Mus musculus with 14 samples.

Results

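The mRNA deadenylation and decay machinery was followed in mice lacking Zfp36l2, through 52 genes taken by symbol from a fixed list, out of 49315 genes in the spleen count table and 18603 genes in the ovary table. Poly(A) RNA was sequenced from 14 libraries, each from 1 animal: 4 WT spleens, 4 L2-cKO spleens, 3 WT ovaries and 3 L2-cKO ovaries. The L2-cKO mice (also named L2-fKO) carried floxed Zfp36l2 alleles with exon 2 between the loxP sites, and Cre under the CMV promoter, which is active in the early embryo, so that the gene was deleted in all tissues and not in a single cell type. The WT mice were littermates with intact Zfp36l2 copies that carried the CMV-Cre transgene as well, so Cre was shared by all 4 groups. The spleen groups held 2 females and 2 males (WT) and 1 female and 3 males (L2-cKO), the ovary donors were female, L2-cKO spleen 3 and L2-cKO ovary 1 came from the same animal, and the labels give no ages. The study describes the spleen animals as pups in the days after birth, matched for age in pairs. The labels do not say which animals form a pair. The study calls the L2-cKO ovary of its histology neonatal and the sequenced ovary animals age-matched, without stating an age. The labels call the spleen source an organoid, whereas the study's methods describe dissected spleens.

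ZFP36L2 belongs to a family of zinc finger proteins that bind AU-rich elements in the 3′UTR of an mRNA and, through contact with CNOT1, bring the CCR4-NOT complex to it. CCR4-NOT shortens the poly(A) tail, after which the body of the mRNA is destroyed from the 5′ end by decapping and the exonuclease XRN1, or from the 3′ end by the exosome. The genes described here encode those effectors and a set of other regulators of mRNA lifetime.

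The deleted gene was checked first. Zfp36l2 had normalized counts of 7394, 4773, 6429 and 4362 in the WT spleens and 278, 326, 349 and 405 in the L2-cKO spleens, a residual level of 5.91% of the WT mean. In the ovaries it had 4868, 4906 and 4745 in WT and 758, 1011 and 1009 in L2-cKO, 19.1% of the WT mean, so every L2-cKO library lay below every WT library in each organ. Reads on genes numbered 39138010 to 45167464 per spleen library and 31052510 to 44270070 per ovary library. Markers of some cell types also differed between the spleen groups. Where 6.51% of all genes tested were called lower, 8 of 8 neutrophil markers and 8 of 8 megakaryocyte and platelet markers fell in L2-cKO spleens (adjusted p below 0.05, edgeR quasi-likelihood test with Benjamini-Hochberg adjustment). Their summed level was 3801 to 6522 CPM (counts scaled to the reads on genes of each library) in WT against 228 to 1441 in L2-cKO for neutrophils, and 566 to 1112 against at most 35.7 for megakaryocytes and platelets, with none of the markers at 0 in all libraries. Of the 8 stroma markers 4 rose (1392 to 1746 in WT, 1851 to 2915 in L2-cKO), where 6.89% of all genes were called higher. None of the 8 erythroid, 8 B cell or 8 T cell markers passed the test. Of 4 pancreatic acinar genes tested 3 fell, with summed levels of 354, 119 and 293 in WT spleens 1, 2 and 4 and at most 44.9 in L2-cKO spleens, WT spleen 3 lying within the L2-cKO range. In whole organs fewer cells of a type and less of an mRNA per cell cannot be told apart, and the part of cell makeup in the values that follow was not tested.

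Few of the decay genes were called in L2-cKO spleens and most fitted changes were small. None was called in L2-cKO ovaries, where few of all genes were called either (1.23% higher and 0.351% lower). All 52 genes passed the filter on low values in both organs, which needed a value of 10 in at least 4 spleen or 3 ovary libraries. In the spleen 1 gene was higher in L2-cKO (Btg3) and 2 were lower (Tob1 and Rc3h2) at an adjusted p below 0.05, where 6.89% of the 16911 genes tested were called higher and 6.51% lower. None of the 52 passed the study's stricter limits, an adjusted p below 0.05 with an absolute log2 fold change above 1, which 6.01% of all genes passed. The 95% interval of the log2 fold change lay within 1 of 0 for 50 of the 52 genes (67.8% of all genes), the exceptions being Tob1 and Btg3, and within 0.5 of 0 for 29 (25.2% of all genes). Most of the 52 genes stood above the median level of all genes tested, and intervals were not compared at matched levels in either organ. At an unadjusted p below 0.05, 3 were higher and 9 lower, against 14.4% and 14.6% of all genes.

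In the ovary none of the 52 genes was called with limma in either direction, where 1.23% of 18504 genes were called higher and 0.351% lower, and none passed the stricter limits (0.957% of all genes). At an unadjusted p below 0.05, 4 were higher and 10 lower, against 9.88% and 6.95% of all genes. On the reads recovered from the ovary table edgeR also called none, whereas DESeq2 called Btg3 higher and Exosc7 lower. The ovary intervals were narrow, with all 52 within 1 of 0 (75.2% of all genes) and 45 within 0.5 of 0 (47.6% of all genes). The median log2 fold change of the 52 genes was −0.11 in the spleen and −0.09 in the ovary, beside −0.02 and −0.00 for all genes tested.

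**Figure D1:**
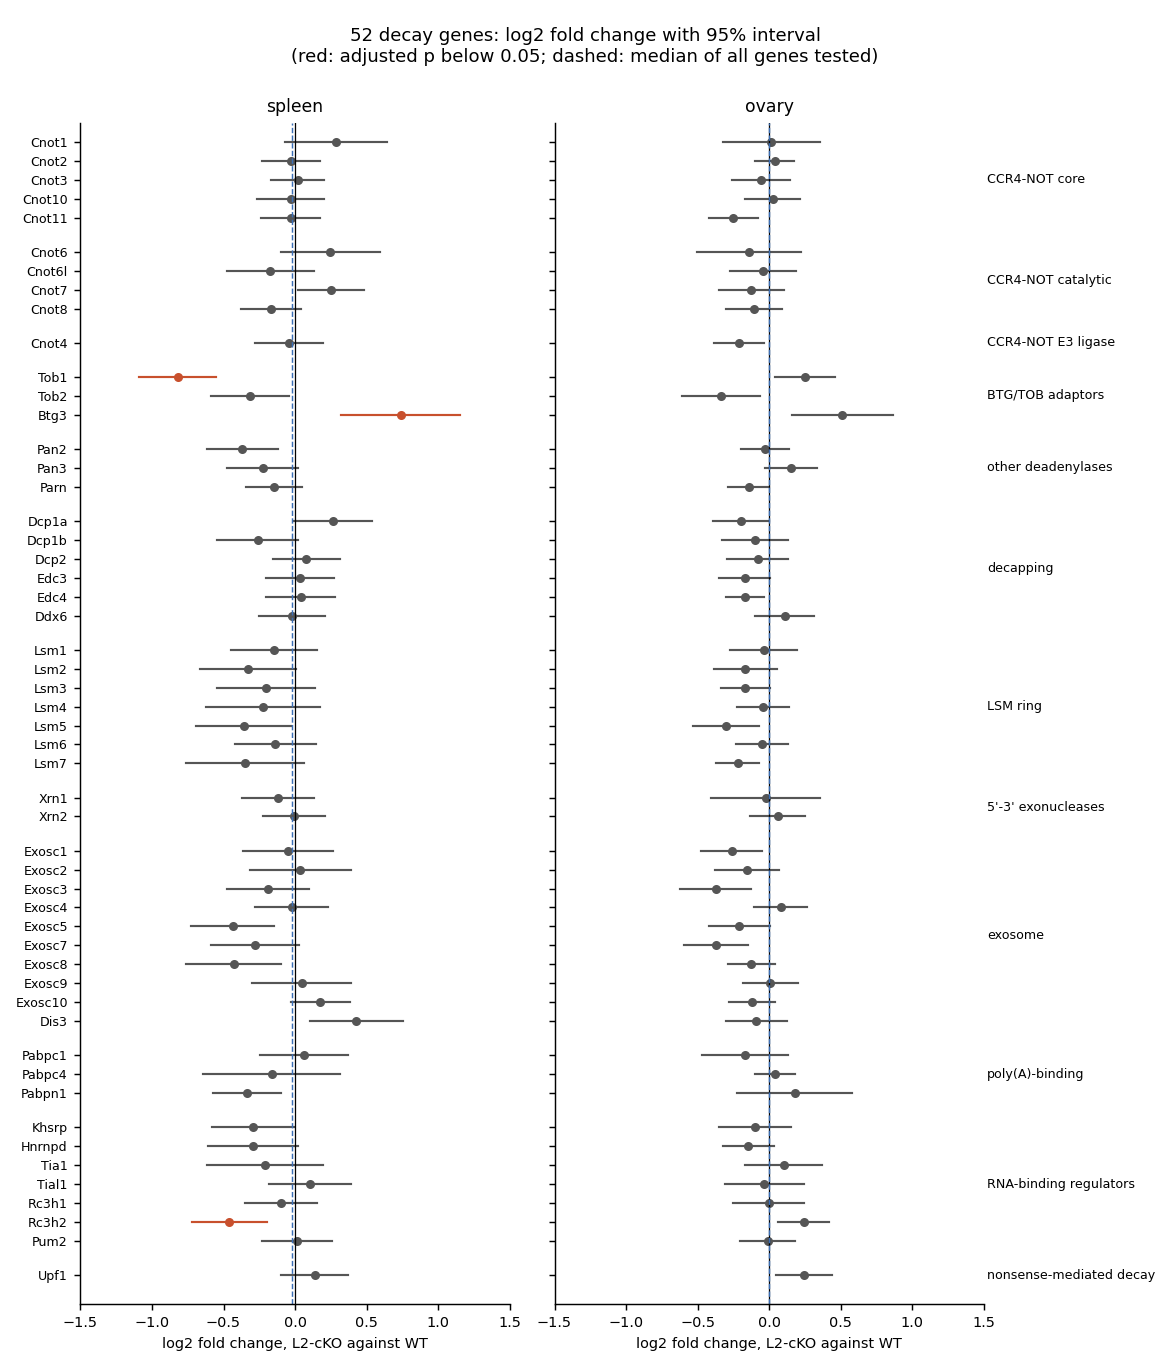
Log2 fold change of L2-cKO against WT with its 95% interval for each of the 52 genes (rows, grouped by role) in the spleen (left) and ovary (right); red marks an adjusted p below 0.05 and the dashed line the median of all genes tested. Most intervals cross 0, with Tob1 at −0.82, Rc3h2 at −0.46 and Btg3 at 0.74 in the spleen as the called genes.

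Of the called genes, Tob1 and Btg3 encode adaptors of the deadenylases. TOB1, TOB2 and BTG3 belong to the BTG/TOB family of antiproliferative proteins, whose conserved domain binds the CNOT7 and CNOT8 deadenylases and whose TOB members also bind poly(A)-binding protein. Tob1 had normalized counts of 681, 617, 567 and 690 in the WT spleens and 394, 341, 348 and 364 in the L2-cKO spleens. The highest L2-cKO spleen lay well below the lowest WT spleen, and the mean fell from 639 ± 58.1 (SD, n = 4) to 362 ± 23.4 (SD, n = 4), a log2 fold change of −0.82 (SE 0.12, adjusted p = 0.00257, edgeR). That call was made in all 17 alternative fits, with log2 fold changes from −0.87 to −0.78. L2-cKO spleen 3 had the lowest summed neutrophil level (228 CPM, against 1236 to 1441 in the other L2-cKO spleens) and a Tob1 value of 348, within the range of the other L2-cKO spleens. All L2-cKO spleens lay below the WT range of that sum (3801 to 6522 CPM), and the part of cell makeup in the Tob1 values was not tested.

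In the ovary Tob1 stood on the other side of WT. It had 1453, 1325 and 1297 in the WT ovaries and 1525, 1558 and 1773 in the L2-cKO ovaries. Every L2-cKO ovary lay above every WT ovary, with a log2 fold change of 0.25 (SE 0.09), but the adjusted p of 0.220 (limma) missed the threshold. The ovary and spleen values were normalized separately, so the difference between the organs was not tested.

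Tob2, the close paralogue of Tob1, had a fitted change below 0 in each organ without passing the test, opposite to Tob1 in the ovary. Its normalized counts were 1948, 1570, 1415 and 1797 in WT spleens and 1450, 1334, 1250 and 1372 in L2-cKO spleens, where WT spleen 3 fell inside the L2-cKO range (log2 fold change −0.32, SE 0.12, adjusted p = 0.116, edgeR). In the ovary it had 1596, 1480 and 1785 in WT and 1179, 1196 and 1486 in L2-cKO (log2 fold change −0.34, SE 0.12, adjusted p = 0.214, limma), with a narrow overlap of the groups.

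Btg3 was the only one of the 52 genes called higher. It had 647, 605, 794 and 623 in the WT spleens and 1103, 1134, 1444 and 767 in the L2-cKO spleens, so that L2-cKO spleen 4 lay under WT spleen 3 while the other 3 knockouts lay clear of WT. The mean rose from 667 ± 86.4 to 1112 ± 277 (SD, n = 4 each), a log2 fold change of 0.74 (SE 0.19, adjusted p = 0.0291, edgeR). The call lay near the threshold and was made in 10 of 17 alternative fits, with log2 fold changes from 0.59 to 0.91. With fewer libraries it was often lost. The adjusted p was 0.0598, 0.0869 and 0.0905 without WT spleen 1, 2 or 4, 0.0738, 0.0787 and 0.0594 without L2-cKO spleen 1, 2 or 3, and 0.0548 in males alone. L2-cKO spleens 3 and 4, with the highest and the lowest Btg3 of their group, also had the highest and the lowest summed levels of the 8 erythroid markers (16615 and 9818 CPM, against 13465 to 13822 in the other L2-cKO spleens) and of the 8 proliferation markers (5996 and 3690). WT spleen 3, with the highest Btg3 in WT, likewise had the highest erythroid (11074) and proliferation (5677) sums of its group, whereas WT spleen 1, with the lowest proliferation sum (3835), had more Btg3 than WT spleens 2 and 4. Other sums ran the opposite way in L2-cKO spleens 3 and 4: B cell (333 and 1077), T cell (103 and 280), macrophage (1375 and 2799) and stroma (1851 and 2915). These were the lowest and the highest of their group. Within WT, spleen 3 was lowest in the B cell, T cell and macrophage sums (357, 94.5 and 888) but highest in stroma (1746). The part of any of these in the Btg3 values was not tested.

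The ovary values of Btg3 leaned the same way, with 616, 583 and 522 in WT and 729, 1021 and 729 in L2-cKO. Every L2-cKO ovary lay above every WT ovary, as for 13.2% of all genes, with a log2 fold change of 0.51 (SE 0.15, adjusted p = 0.157, limma).

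**Figure D2:**
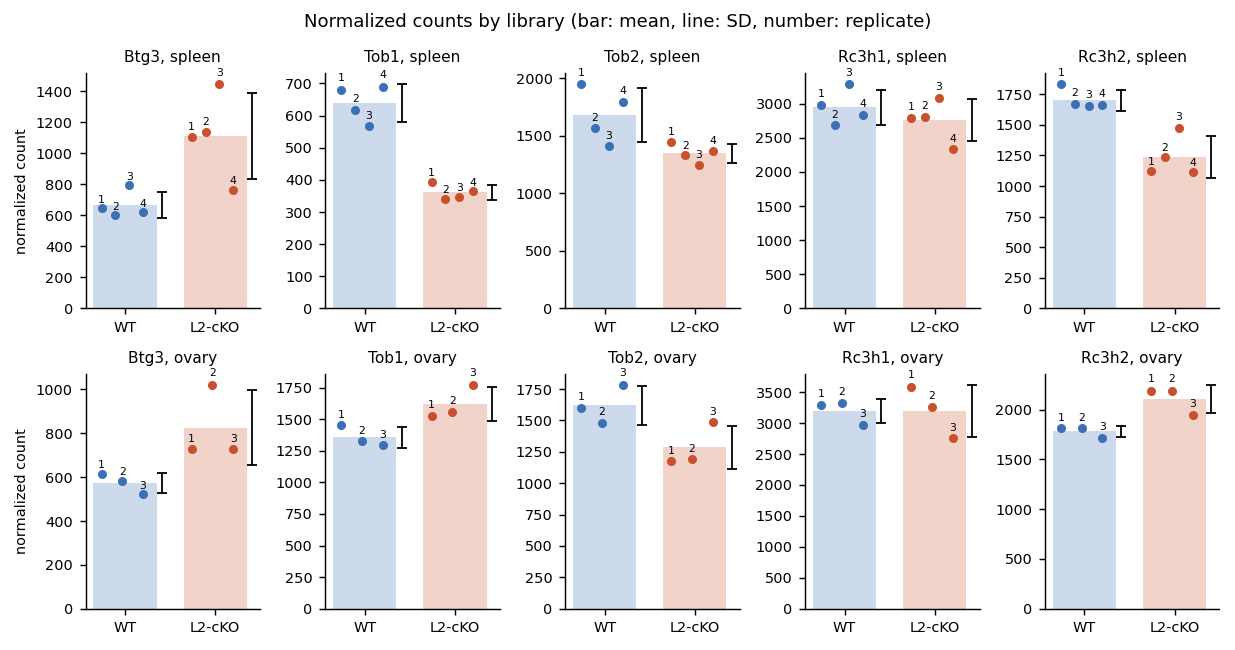
Normalized counts of Btg3, Tob1, Tob2, Rc3h1 and Rc3h2 in each library (points, numbered by replicate) with the group mean (bars) and SD (lines), for the spleen (top) and the ovary (bottom), which were normalized separately. Tob1 lies at 341 to 394 in the L2-cKO spleens against 567 to 690 in WT, and in the ovary at 1525 to 1773 in L2-cKO against 1297 to 1453 in WT.

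Roquin-2, encoded by Rc3h2, is an RNA-binding protein that recognises stem-loops in 3′UTRs and, like its paralogue Roquin-1 (Rc3h1), recruits CCR4-NOT to immune mRNAs. Rc3h2 had 1830, 1668, 1652 and 1659 in the WT spleens and 1123, 1235, 1477 and 1116 in the L2-cKO spleens. The groups did not overlap, and the mean fell from 1702 ± 85.3 to 1238 ± 169 (SD, n = 4 each), a log2 fold change of −0.46 (SE 0.12, adjusted p = 0.0296, edgeR). That adjusted p passed the threshold in 9 of 17 alternative fits. It became 0.0652, 0.0709 and 0.0768 without WT spleen 1, 2 or 4, 0.101 and 0.0882 without L2-cKO spleen 1 or 2, and 0.0702 without the filter on low counts.

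As for Tob1, the ovary values of Rc3h2 lay on the other side of WT, at 1814, 1811 and 1719 in WT and 2189, 2191 and 1945 in L2-cKO, without overlap (log2 fold change 0.24, SE 0.08, adjusted p = 0.178, limma). Rc3h1 overlapped between genotypes in each organ, with log2 fold changes of −0.10 (spleen) and −0.00 (ovary). Of the 52 genes, Tob1 and Rc3h2 were the 2 with all L2-cKO values below WT in the spleen and above WT in the ovary, where this held for 1.17% of the 15306 genes tested in both organs.

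The heptamer UAUUUAU is the core of the sequence that ZFP36 proteins prefer, and it was searched in RNA sense in the 3′UTR annotated as longest for every gene (GENCODE M21, GRCm38). The windows of 27 bases around its 3 copies in Rc3h2, with the heptamer in capitals, are shown because Rc3h2 is the called gene that carries it. They lie on the minus strand at chr2:37374757-37374783, chr2:37374499-37374525 and chr2:37373288-37373314, in the 5331 bases of the 3′UTR of a gene that spans chr2:37370069-37422903.

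Rc3h2 site 1: ccagcugcuuUAUUUAUcuuuuucauu
Rc3h2 site 2: gcuuuguuaaUAUUUAUacacaggcua
Rc3h2 site 3: aaagacauuuUAUUUAUuuuacucugu

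Among genes tested in the spleen whose 3′UTR had 80 to 125% of that length, 64.3% held the heptamer at least once. The 3′UTR of Tob1 (767 bases; chr11:94211454-94215495, plus strand) and that of Btg3 (2554 bases; chr16:78332637-78377192, minus strand) held none, where 17.8% and 42.5% of 3′UTRs near those lengths held it. They did hold 3 and 5 copies of the shorter AUUUA. The 3′UTR of Tob2 held the heptamer once, at chr15:81849861-81849887 on the minus strand, and is shown beside Tob1 because the paralogues differ in it.

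Tob2: aucaccugcuUAUUUAUguacgagguu

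Over the whole list 18 of 52 genes held the heptamer (34.6%), near the 29.5% of the 14227 tested genes with an annotated 3′UTR. In the spleen those 18 had a median log2 fold change of −0.13, beside −0.05 for the 34 without it, 0.05 for all tested genes with it and −0.03 for all tested genes without it. In the ovary the same medians were −0.07, −0.09, 0.02 and −0.02. A match describes the sequence and does not show that ZFP36L2 binds there.

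None of the 10 genes of the CCR4-NOT complex was called in either organ. In the spleen 6.89% of all genes tested were called higher and 6.51% lower, and in the ovary 1.23% and 0.351%. The same shares stand beside the sets that follow. CNOT1 is the scaffold of the complex and the docking surface for ZFP36 proteins. CNOT2 and CNOT3 form a module that steadies the complex, and CNOT10 and CNOT11 form another at the N-terminal end of CNOT1. Cnot1 had 8894, 6552, 10784 and 7153 in WT spleens and 9253, 10396, 11212 and 9819 in L2-cKO spleens. WT spleen 3 lay inside the L2-cKO range, the log2 fold change was 0.29 (95% interval −0.07 to 0.64, adjusted p = 0.274, edgeR), and males alone gave 0.52 with an adjusted p of 0.0401. In the ovary it had 17014, 14981 and 13744 in WT and 17618, 16599 and 12368 in L2-cKO, a log2 fold change of 0.02 (−0.32 to 0.35). Cnot2, Cnot3, Cnot10 and Cnot11 had spleen log2 fold changes of −0.03 to 0.02, and the widest of their intervals was −0.27 to 0.20. Cnot2 varied least of all 52 genes in WT spleens, at 3790 to 3885. In the ovary Cnot11 lay without overlap at 1949 ± 43.3 in WT and 1638 ± 97.9 in L2-cKO (SD, n = 3 each; log2 fold change −0.25, adjusted p = 0.150, limma), as did Cnot4, the RING E3 ligase that associates with the complex (−0.21, adjusted p = 0.223).

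Catalysis in CCR4-NOT is shared between an exonuclease of the CCR4 class, CNOT6 or CNOT6L, and one of the CAF1 class, CNOT7 or CNOT8. In the spleen the fitted changes of each pair had opposite signs. Cnot7 had 2307, 2275, 2669 and 2138 in WT and 2816, 2801, 3016 and 2532 in L2-cKO (log2 fold change 0.25, SE 0.10, adjusted p = 0.144, edgeR), while Cnot8 had 2873, 2898, 2472 and 2833 in WT and 2576, 2375, 2540 and 2348 in L2-cKO (−0.17, SE 0.09, adjusted p = 0.261). WT spleen 3 lay with the L2-cKO spleens for each of these genes. Cnot6 had 6828, 6494, 9780 and 6947 in WT and 8824, 9193, 10084 and 7498 in L2-cKO (0.24, adjusted p = 0.329), and Cnot6l had 4887, 3940, 3631 and 3675 in WT and 3445, 3541, 3072 and 4258 in L2-cKO (−0.17, adjusted p = 0.434). In the ovary all 4 overlapped between genotypes, with log2 fold changes of −0.14 (Cnot6), −0.04 (Cnot6l), −0.12 (Cnot7) and −0.11 (Cnot8).

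The 4 catalytic genes all carry the heptamer. Cnot6l has 3 copies, Cnot6 has 2, and Cnot7 and Cnot8 have 1 each. The sites of Cnot7 (chr8:40493116-40493142, minus strand), Cnot8 (chr11:58118538-58118564, plus strand) and the first site of Cnot6 (chr11:49672370-49672396) and of Cnot6l (chr5:96071162-96071188), the latter pair on the minus strand, are given to compare their flanks.

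Cnot6 site 1: uggugguaauUAUUUAUgcuuugagaa
Cnot6l site 1: gggaagagauUAUUUAUuuuuguuucc
Cnot7: uuuauaaacaUAUUUAUgauguucuug
Cnot8: uuguaaauauUAUUUAUguuuuuaauu

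The balance within paralogue pairs was compared as the log2 ratio of their normalized counts inside each library, for 7 pairs in 2 organs, with a two-sided exact permutation test adjusted over the 14 comparisons. The ratio of Tob1 to Tob2 was −1.52, −1.35, −1.32 and −1.38 in WT spleens and −1.88, −1.97, −1.85 and −1.91 in L2-cKO spleens. The groups were apart by −0.51 and the exact p was 0.0286, the smallest that 4 against 4 allows, with an adjusted p of 0.200. With so few libraries no pair could have passed 0.05 after adjustment, since the lowest adjusted p within reach was 0.0571, so the ratios are given as values. In the ovary the same ratio was −0.14, −0.16 and −0.46 in WT and 0.37, 0.38 and 0.25 in L2-cKO, apart by 0.59 in the other direction (exact p = 0.100, the smallest for 3 against 3; adjusted p = 0.233). Rc3h1 to Rc3h2 separated too, from 0.79 ± 0.14 to 1.16 ± 0.12 in the spleen (SD, n = 4 each; exact p = 0.0286, adjusted p = 0.200) and from 0.84 ± 0.04 to 0.60 ± 0.11 in the ovary (SD, n = 3 each; exact p = 0.100, adjusted p = 0.233).

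None of the other 5 pairs separated the genotypes in either organ. Cnot7 to Cnot8 was closest, at −0.32, −0.35, 0.11 and −0.41 in WT spleens and 0.13, 0.24, 0.25 and 0.11 in L2-cKO spleens, where WT spleen 3 matched L2-cKO spleen 4 to the second decimal (difference 0.42, exact p = 0.0571, adjusted p = 0.200). Dcp1a to Dcp1b differed by 0.52 with the same exact and adjusted p, and Cnot6 to Cnot6l by 0.43 (exact p = 0.200, adjusted p = 0.350).

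**Figure D3:**
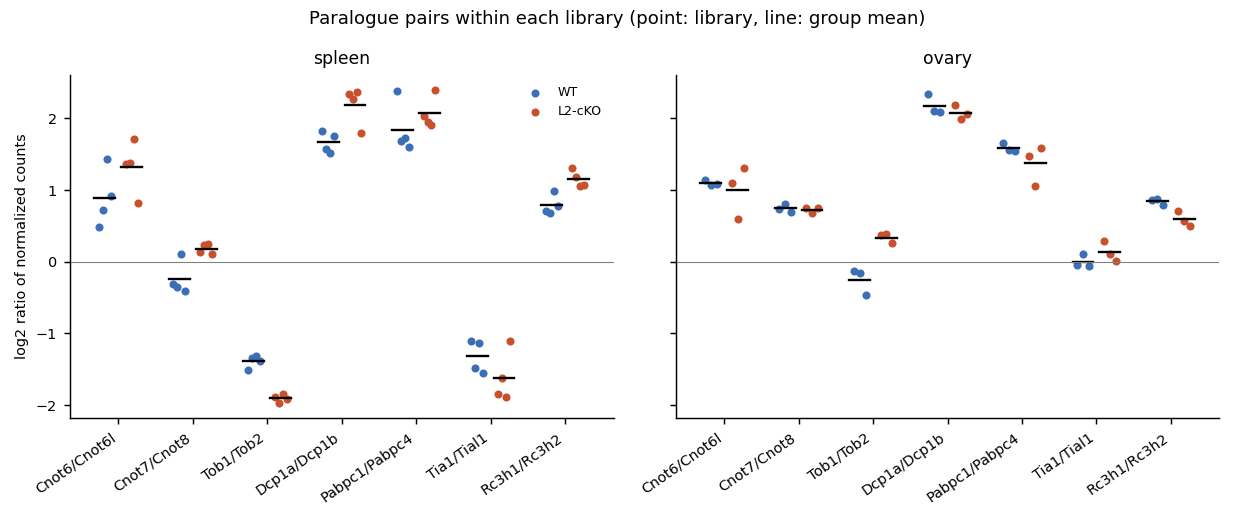
Log2 ratio of normalized counts within each library (points) for 7 paralogue pairs in the spleen (left) and ovary (right), with group means as lines. The Tob1/Tob2 ratio is lower in all L2-cKO spleens (−1.97 to −1.85) than in all WT spleens (−1.52 to −1.32), and higher in all L2-cKO ovaries (0.25 to 0.38) than in all WT ovaries (−0.46 to −0.14).

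Outside CCR4-NOT, poly(A) tails are trimmed by the PAN2-PAN3 complex, in which PAN2 is the enzyme and PAN3 the adaptor to poly(A)-binding protein, and by PARN, a cap-binding deadenylase also known for maturing noncoding RNAs. Pan2 had 2261, 2075, 2739 and 2280 in WT spleens and 1802, 1774, 1985 and 1689 in L2-cKO spleens, without overlap, but its adjusted p was 0.0578 (log2 fold change −0.37, SE 0.11, edgeR) and passed only with DESeq2 (0.0267) and with upper-quartile scaling (0.0439). Parn also lay below WT without overlap in the spleen, at 1937, 1949, 2037 and 2068 in WT and 1785, 1811, 1906 and 1722 in L2-cKO, with a log2 fold change of −0.15 (adjusted p = 0.306). The same gene lay below WT without overlap in the ovary, at 2515, 2488 and 2424 in WT and 2298, 2186 and 2238 in L2-cKO (−0.14, adjusted p = 0.299, limma). Pan2 in the ovary did not differ beyond its spread, at 2780 ± 57.5 in WT and 2726 ± 190 in L2-cKO (SD, n = 3 each; 95% interval of the log2 fold change −0.20 to 0.14). Pan3 had a log2 fold change of −0.23 in the spleen (adjusted p = 0.211) and 0.15 in the ovary (adjusted p = 0.381).

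All L2-cKO libraries lay below all WT libraries for 7 of the 52 genes in the spleen (Tob1, Pan2, Parn, Exosc5, Exosc7, Pabpn1 and Rc3h2) and above for 1 (Exosc10), where this held for 10.8% and 9.61% of all genes tested. In the ovary 14 lay below and 5 above, where this held for 12% and 13.2% of all genes. Parn and Exosc7 were the 2 genes below WT in each organ, where this held for 1.55% of the genes tested in both.

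Decapping, the removal of the 5′ cap, gave no call among its 6 genes in either organ. DCP2 is the decapping enzyme, DCP1A and DCP1B are its activating partners, EDC3 and EDC4 are enhancers and scaffolds, and DDX6 is a helicase of P-bodies that binds CNOT1. Dcp2 had 2952, 2486, 3009 and 2514 in WT spleens and 2808, 3008, 2676 and 3082 in L2-cKO spleens, fully overlapping (log2 fold change 0.08, 95% interval −0.15 to 0.31). Dcp1a and Dcp1b had the largest values of the 6 in opposite directions (0.26, adjusted p = 0.184, and −0.26, adjusted p = 0.209). In the ovary Dcp2 was at 4351, 3909 and 4024 in WT and 4345, 3567 and 3734 in L2-cKO (−0.08, −0.29 to 0.13). Dcp1a (−0.20), Edc3 (−0.17) and Edc4 (−0.17) each lay below WT in all L2-cKO ovaries, with adjusted p of 0.293, 0.310 and 0.209 (limma).

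The Sm-like proteins LSM1 to LSM7 form the ring that binds the end of a deadenylated mRNA and stimulates decapping, and all except LSM1 also belong to the nuclear ring around U6 snRNA. All 7 genes had log2 fold changes below 0 in each organ (spleen −0.36 to −0.14, ovary −0.30 to −0.04), and none was called. Lsm5 was the lowest in each. It had 1286, 1682, 1323 and 1646 in WT spleens and 1226, 1172, 1322 and 908 in L2-cKO spleens (−0.36, SE 0.15, adjusted p = 0.137, edgeR), where WT spleen 1 and L2-cKO spleen 3 overlapped. In the ovaries it had 872, 882 and 913 in WT and 710, 801 and 657 in L2-cKO, without overlap (−0.30, SE 0.10, adjusted p = 0.190, limma).

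L2-cKO spleen 4 stood apart in the spleen values of the ring. That library was the lowest of the 8 spleens for all 7 LSM genes, 8 of 10 exosome genes and 3 of 3 poly(A)-binding protein genes, and for 32 of the 52 genes in all, where it was the lowest for 22.6% of all genes tested. Its LSM median lay 0.68 below the WT mean on the log2 scale, beside −0.20 to −0.02 in the other L2-cKO spleens and −0.20 to 0.18 in the WT spleens. Without it the median log2 fold change of the ring went from −0.22 to −0.09 and that of all 52 genes from −0.11 to −0.03. WT spleens 2 and 4, both male, had the higher LSM values of their group, and males alone gave a ring median of −0.52. L2-cKO spleen 4 also had the lowest proliferation sum (3690 CPM, beside 4731 to 5996 in the other L2-cKO spleens) and the highest macrophage sum (2799, beside 1375 to 1451). Among L2-cKO spleens it had the highest stroma (2915, beside 1851 to 2067), B cell (1077, beside 333 to 588) and T cell (280, beside 103 to 168) sums. Its erythroid sum was the lowest of them (9818, beside 13465 to 16615). In WT the proliferation sum did not follow the order of the LSM medians: it was lowest in WT spleen 1 (3835), which had the lowest LSM median (−0.20), but highest in WT spleen 3 (5677), which had the next lowest (−0.12). The part of these in the LSM values was not tested.

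**Figure D4:**
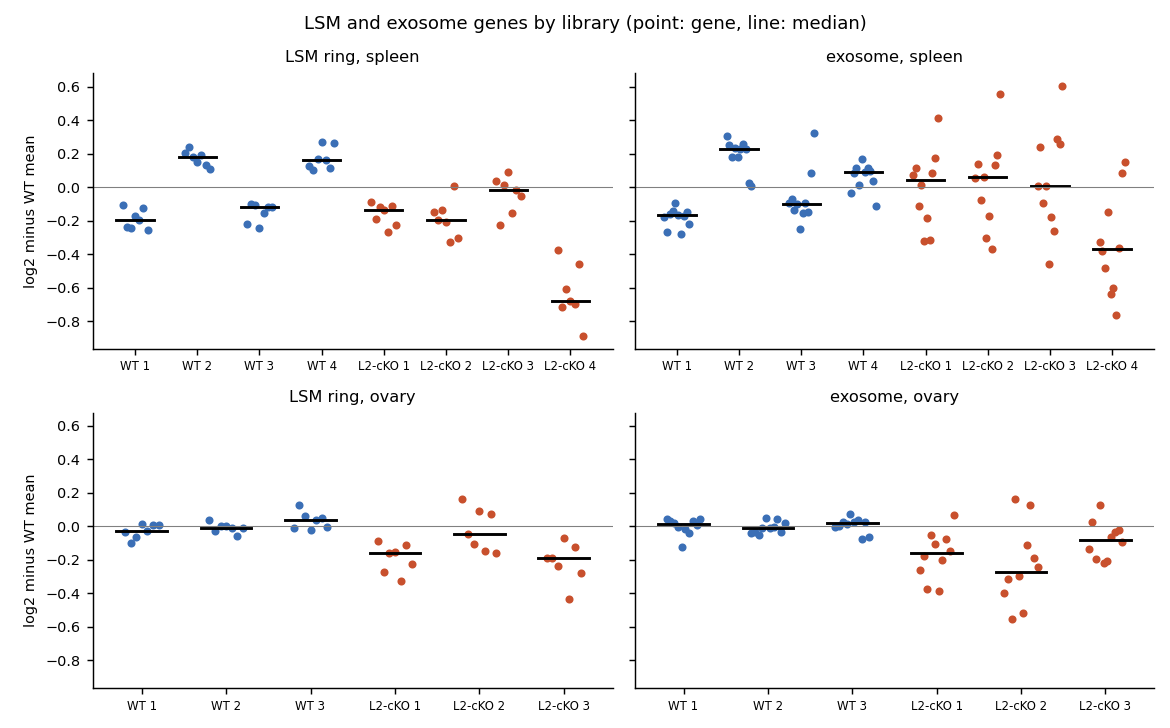
Log2 normalized count minus the mean of the WT libraries for the 7 LSM genes (left) and 10 exosome genes (right), one point per gene and a line at the median of each library, in the spleen (top) and ovary (bottom). L2-cKO spleen 4 stands below the other spleens, with an LSM median of −0.68 and an exosome median of −0.37.

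XRN1 digests decapped mRNA in the cytoplasm and XRN2 is its nuclear counterpart in transcription termination and RNA maturation. Neither was called. Xrn1 had 2753, 2240, 2790 and 2685 in WT spleens and 2101, 2512, 2641 and 2382 in L2-cKO spleens (log2 fold change −0.12, 95% interval −0.37 to 0.13), and 3019, 2798 and 2359 in WT ovaries against 3258, 2740 and 2120 in L2-cKO ovaries (−0.02, −0.40 to 0.35). Xrn2 had 5422, 4931, 4894 and 4825 in WT spleens and 4742, 5080, 4641 and 5484 in L2-cKO spleens (−0.01, −0.22 to 0.21), and 6500, 5995 and 5599 in WT ovaries against 6768, 6099 and 5989 in L2-cKO ovaries (0.06, −0.13 to 0.25).

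The exosome degrades RNA from the 3′ end. EXOSC1 to EXOSC9 build its inert barrel and cap, and the catalysis comes from DIS3 and, mainly in the nucleus, EXOSC10. In the spleen the catalytic genes were higher without passing the test. Dis3 had 1797, 2102, 2621 and 1937 in WT and 2790, 3078, 3185 and 2325 in L2-cKO (log2 fold change 0.43, SE 0.15, adjusted p = 0.0831, edgeR), with L2-cKO spleen 4 inside the WT range. It was called in 3 of 17 alternatives, among them the fits without that library (0.0306) and without WT spleen 3 (0.0253). Exosc10 had 3206, 3610, 3765 and 3631 in WT and 3995, 4059, 4250 and 3767 in L2-cKO, with the highest WT and the lowest L2-cKO library almost level (0.18, SE 0.09, adjusted p = 0.236).

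Among the barrel genes Exosc5 and Exosc8 had the lowest spleen values. Exosc5 had 2568, 3098, 2300 and 3072 in WT and 2195, 2214, 1994 and 1756 in L2-cKO, without overlap (−0.44, SE 0.13, adjusted p = 0.0524, edgeR). It was called in 6 of 17 alternatives, among them DESeq2 (0.0276), sex as a covariate (0.0350), males alone (0.0348) and the fit without WT spleen 3 (0.0237). Exosc8 had 2864, 4151, 3249 and 3760 in WT and 2794, 2683, 2891 and 2046 in L2-cKO, where L2-cKO spleen 3 exceeded WT spleen 1 (−0.43, SE 0.15, adjusted p = 0.0868), and males alone gave −0.66 with an adjusted p of 0.0382. Exosc2, Exosc4 and Exosc9 had log2 fold changes of −0.02 to 0.04.

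In the ovary other genes of the barrel and cap were lowest. Exosc7 had 1219, 1222 and 1255 in WT and 943, 860 and 1066 in L2-cKO (−0.37, SE 0.10, adjusted p = 0.120, limma), the lowest adjusted p of the 52 genes in that organ. Exosc3 had 1066, 1017 and 1073 in WT and 810, 717 and 918 in L2-cKO (−0.37, SE 0.11, adjusted p = 0.145), and Exosc1 had 1134, 1070 and 1096 in WT and 918, 836 and 1002 in L2-cKO (−0.26, SE 0.09, adjusted p = 0.215). In all 3 the groups were apart and L2-cKO ovary 2 was the lowest. That ovary was the lowest of 6 for 22 of the 52 genes and for 29.5% of all genes. It had the lowest summed granulosa markers (1195 CPM, beside 1969 to 2142 in the other L2-cKO ovaries and 2053 to 2375 in WT). Its proliferation (1100, beside 1361 to 1400 and 1391 to 1411) and oocyte sums (2807, beside 3295 to 3314 and 3248 to 3446) were the lowest as well. The part of these was not tested. Without L2-cKO ovary 2 the exosome median went from −0.14 to −0.11. Dis3 in the ovary overlapped, at 2446, 2409 and 2271 in WT and 2491, 2005 and 2223 in L2-cKO (−0.09, −0.30 to 0.12), as did Exosc10 at 3256, 3153 and 3285 in WT and 2922, 2838 and 3177 in L2-cKO (−0.12, −0.28 to 0.04).

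Poly(A)-binding proteins coat the tail on which the deadenylases act, PABPC1 and PABPC4 in the cytoplasm and PABPN1 in the nucleus. Pabpn1 lay below WT without overlap in the spleen, at 3604, 4266, 3828 and 4309 in WT and 3244, 3107, 3532 and 2820 in L2-cKO (log2 fold change −0.33, SE 0.11, adjusted p = 0.0670, edgeR). Its exons share 651 bases on the same strand with a predicted gene, where reads cannot be told apart. Pabpc1 (0.06 in the spleen, −0.17 in the ovary) and Pabpc4 (−0.16 and 0.04) overlapped between genotypes.

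The remaining RNA-binding regulators recognise other elements or bind AU-rich ones beside the ZFP36 family: KHSRP and HNRNPD (AUF1) bind AU-rich elements, TIA1 and TIAL1 bind U-rich stretches and hold back translation, and PUM2 binds Pumilio elements and recruits CCR4-NOT. None was called. Khsrp and Hnrnpd were lower in the spleen by −0.29 and −0.30 (adjusted p = 0.164 and 0.198, edgeR), and L2-cKO spleen 4 was the lowest library for each, at 9937 and 13545. Pum2 was at 11713 ± 709 in WT and 11802 ± 1117 in L2-cKO spleens (SD, n = 4 each; 95% interval of the log2 fold change −0.23 to 0.25). Upf1, the helicase of nonsense-mediated decay, had 4270, 4532 and 4956 in WT ovaries and 5084, 5332 and 5858 in L2-cKO ovaries, without overlap (0.24, SE 0.08, adjusted p = 0.214, limma), and 0.14 in the spleen (adjusted p = 0.421).

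Levels were compared between genes on a scale of RPKM (CPM divided by the union exon length in kilobases). Of the 52 genes 47 in the WT spleen and 46 in the WT ovary lay above the median of all genes tested (3.47 and 4.56), and the median member stood at the 74.5 and 79.5 percentile. Pabpc1 was the most abundant in each, at 489 ± 27.5 in WT spleen (SD, n = 4) and 138 ± 3.63 in WT ovary (SD, n = 3), and Dcp1b the least, at 1.68 and 2.28.

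Within CCR4-NOT in the WT spleen the order of levels was Cnot6 (26.4 ± 6.12), Cnot8 (24.3 ± 1.55), Cnot2 (21.7 ± 1.08), Cnot11 (11.6), Cnot1 (11.3), Cnot3 (10.9), Cnot10 (10.4), Cnot7 (9.37), Cnot6l (9.08) and Cnot4 (3.09 ± 0.13). The libraries of neighbours overlapped in level within the run from Cnot6 to Cnot2 and again from Cnot11 to Cnot6l. In the WT ovary Cnot6 was again first (38.4 ± 2.42), followed by Cnot8 (30.1 ± 0.60), Cnot2 (26.5 ± 0.82), Cnot1 (24.0 ± 2.09) and Cnot7 (22.8 ± 0.63), with Cnot6l at 11.5 ± 0.42 and Cnot4 last at 4.52 (SD, n = 4 in the spleen and n = 3 in the ovary). The order depends on the length used: by the longest transcript Cnot1 went to 23.2 in the spleen and to 49.0 in the ovary, where it became the first.

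Within groups the median spread of these genes was smaller than that of all genes tested. Most of the 52 also stood above the median level, and spreads were not compared at matched levels. The median SD of the log2 value was 0.17 in WT and 0.15 in L2-cKO spleens for the 52 genes, beside 0.24 and 0.27 for all genes tested, and 0.06 and 0.12 in the ovaries, beside 0.11 and 0.20. Tia1 in WT spleens (0.35) and Btg3 in L2-cKO spleens (0.38) varied the most in their groups.

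**Figure D5:**
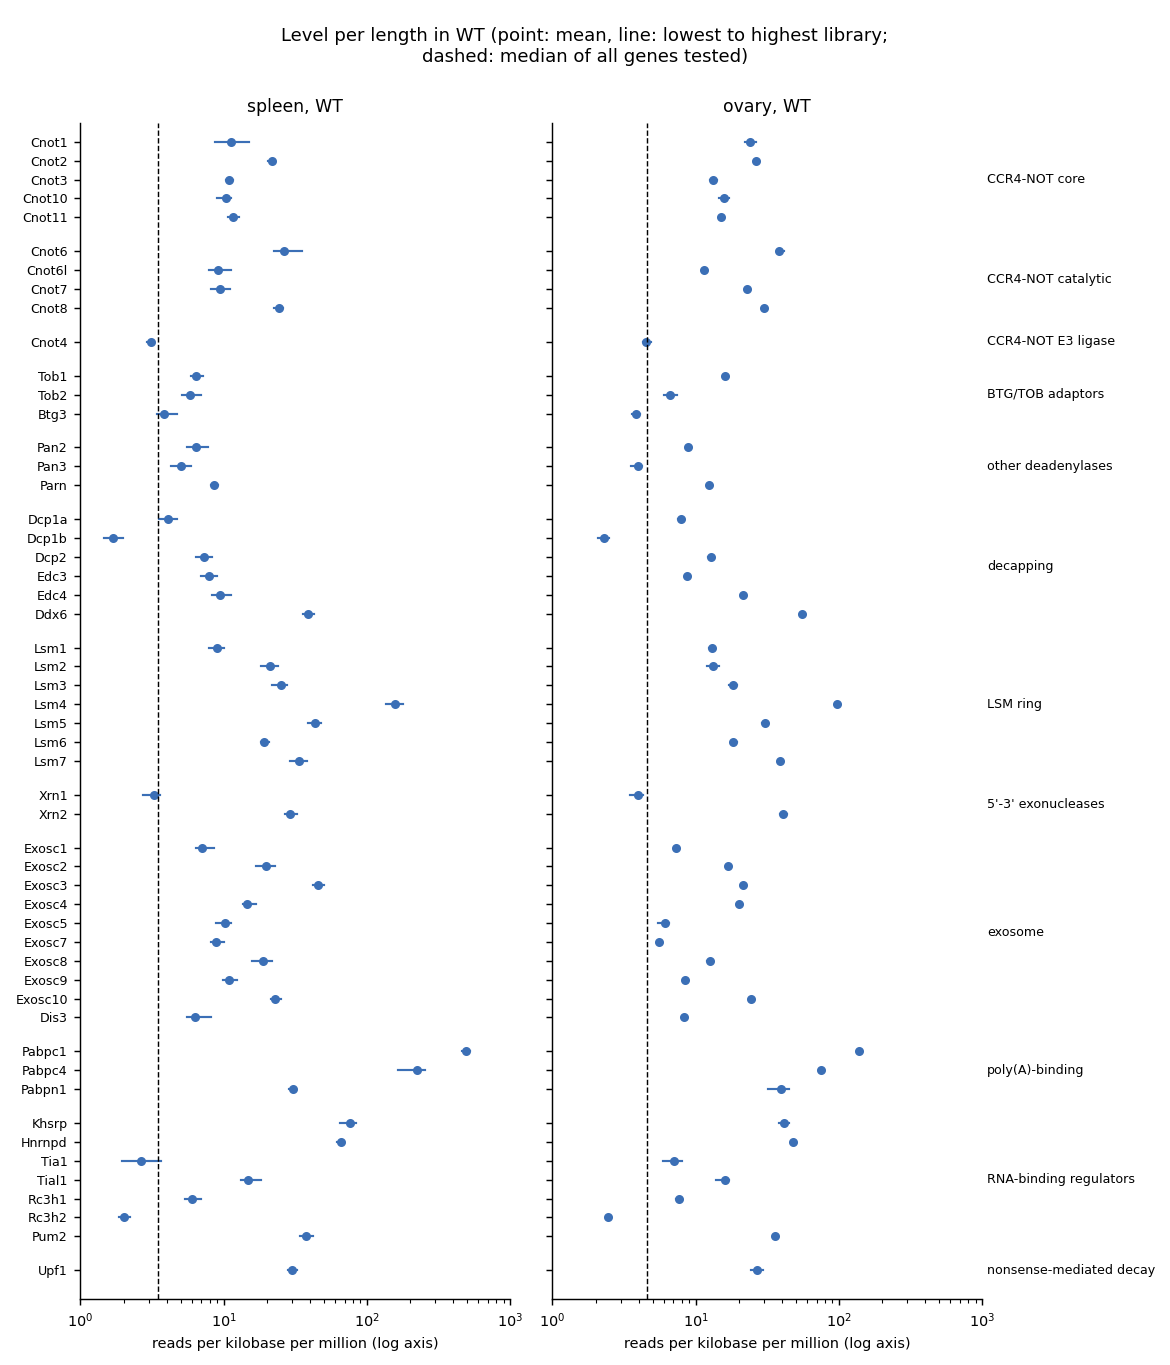
Level in WT in RPKM by union exon length (log axis) for each of the 52 genes, in the spleen (left) and ovary (right); points are means, lines run from the lowest to the highest library, and the dashed line is the median of all genes tested. Pabpc1 is highest (489 and 138) and Dcp1b lowest (1.68 and 2.28).

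A wider list of 73 other decay genes was read the same way. In the spleen 67 were tested, of which 1 was higher and 2 lower, where 6.89% and 6.51% of all genes were called, with a median log2 fold change of −0.02. Noct, encoding the CCR4-related enzyme nocturnin, had 3191, 2814, 2292 and 1965 in WT and 5963, 5637, 7960 and 2885 in L2-cKO (1.13, SE 0.28, adjusted p = 0.0255, edgeR), with L2-cKO spleen 4 inside the WT range. The adjusted p was 0.0619, 0.0510 and 0.0819 without WT spleen 2, 3 or 4, 0.0683, 0.0620 and 0.0538 without L2-cKO spleen 1, 2 or 3, and 0.0833 in males alone. Cpeb2 and Cpeb3, which encode cytoplasmic polyadenylation element-binding proteins, were lower without overlap. Cpeb2 had 284, 287, 389 and 288 in WT and 174, 223, 187 and 196 in L2-cKO (−0.68, SE 0.16, adjusted p = 0.0241), and the call was lost without WT spleen 2 or 4 (0.0517 and 0.0569) and without L2-cKO spleen 1 or 3 (0.0839 and 0.0521), and in males alone (0.0814). Cpeb3 had 655, 739, 925 and 804 in WT and 491, 526, 654 and 391 in L2-cKO (−0.60, SE 0.17, adjusted p = 0.0487), and the call was lost without WT spleen 2, 3 or 4 (0.0958, 0.0827 and 0.124) and without L2-cKO spleen 1, 2 or 4 (0.129, 0.112 and 0.0589), with sex as a covariate (0.0675), with DESeq2 size factors (0.0531) and without the filter on low counts (0.0537).

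In the ovary 70 of these were tested, none was called higher and 1 was called lower, where 1.23% and 0.351% of all genes were called. Patl2, an oocyte relative of the decapping activator PATL1, had 1431, 1285 and 1444 in WT and 808, 444 and 674 in L2-cKO, a log2 fold change of −1.15 (SE 0.20, adjusted p = 0.0411, limma). The groups were far apart, and the adjusted p was 0.192, 0.153 and 0.182 without WT ovary 1, 2 or 3 and 0.0804 without L2-cKO ovary 3. The summed level of the 8 oocyte markers was 3248 to 3446 CPM in WT and 2807 to 3314 in L2-cKO, lowest in L2-cKO ovary 2, and none of them was called. Single markers moved in either direction. The mean of Bmp15 went from 62.9 CPM in WT to 31.3 in L2-cKO, and that of Figla from 30.2 to 60.4. The part of oocyte content in the Patl2 values was not tested. The paralogues of the deleted gene, Zfp36 and Zfp36l1, were not called: in the spleen their log2 fold changes were −0.26 and 0.09, and in the ovary 0.55 (adjusted p = 0.0730) and 0.30 (adjusted p = 0.123), where every L2-cKO ovary exceeded every WT ovary for each.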

How the data were processed

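Poly(A) libraries were trimmed with Trimmomatic 0.36, mapped with STAR 2.5.2b to GRCm38 and counted by the authors with featureCounts (Subread 1.5.2) as unique, strand-specific exonic reads. The sources used here state this for the spleen. The spleen counts were used as deposited. The ovary values are the authors' signal values, normalized counts obtained as reads divided by a library size factor. Of these values 100% were whole reads within 0.001 once scaled. Columns with the authors' fold changes, p-values and spleen normalized values were not used. Spleen counts were fitted with edgeR 4.0.16 (quasi-likelihood, TMM), shown as TMM-normalized counts. Ovary values were fitted with limma 3.58.1 (trend) on log2(value + 1), since they came normalized. The ovary reads recovered by scaling served in alternative fits only. Genes needed 10 in at least 4 spleen or 3 ovary libraries. Adjustment was Benjamini-Hochberg over all genes tested. DESeq2 1.42.0 was an alternative, and fits were tested on simulated data. Exact tests used scipy 1.17.1. The 52 genes, the other decay genes and the markers were chosen with earlier results of these data known. Named were all called genes, the 8 largest changes per organ and 12 enzymes or contacts. Replicates are separate animals (chi-square per degree of freedom between replicates 7.86 to 236 in spleens and 11.9 to 57.5 in ovaries). Cnot3, Edc4, Lsm3, Pabpn1 and Tia1 share exon bases on the same strand with another annotated gene.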

Additional observations from a re-analysis of the deposited data

Results flagged for a closer look

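In the spleen 7 values stood apart from the other 3 of their group by Dixon's test at the 95% level, among 104 groups of 4 looked at; chance flags about 1 in 20 groups. L2-cKO spleen 4 was low for Dcp1a (1458 normalized counts), Lsm2 (1721), Exosc3 (1859) and Exosc7 (1513). WT spleen 3 was high for Cnot6 (9780) and low for Cnot8 (2472). WT spleen 1 was high for Rc3h2 (1830).

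For Tob1 every L2-cKO spleen lay below every WT spleen (log2 fold change −0.82) and every L2-cKO ovary above every WT ovary (0.25). For Rc3h2 the same held (−0.46 and 0.24). The difference between the organs was not tested, because their tables were normalized separately.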

How the results depend on the processing

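Among the 52 genes in the spleen the count called higher (1) became 2 with a replicate block by the numbers in the titles and 0 to 2 when single libraries were left out. The count called lower (2) became 5 with DESeq2, 4 with upper-quartile factors, 6 in males alone, 1 with no filter on low counts, 1 under each replicate block, and 1 to 4 when single libraries were left out. The other decay genes called higher (1) became 3 with DESeq2, 2 with sex as a covariate, 3 in males, 6 with the title-number block and 0 to 3 on leaving libraries out; those called lower (2) became 5, 1 and 5 in the first 3 of these fits, 1 with DESeq2 size factors, 1 with no filter, 4 with the title-number block, 0 with the second WT 3 taken as 4, and 0 to 4 on leaving libraries out. Over all genes the spleen calls (1166 higher, 1101 lower) became 1787 and 1700 with the title-number block, 669 and 578 with the other block, and 543 to 1527 and 551 to 1535 on leaving libraries out, with the lower counts without WT spleen 2 (601 and 637), WT spleen 4 (543 and 570), L2-cKO spleen 1 (647 and 551) or L2-cKO spleen 2 (678 and 613).

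In the ovary DESeq2 on recovered reads called 1 of the 52 genes higher and 1 lower, 5 and 3 of the other decay genes, and 811 and 305 of all genes, where limma called 227 and 65. The replicate block gave 2 other decay genes lower, and 411 and 128 of all genes. Leaving out single libraries gave 0 to 1 other decay genes in each direction, and 30 to 286 higher and 4 to 138 lower of all genes: 44 and 7, 30 and 4, and 38 and 7 without WT ovary 1, 2 or 3, and 109 and 54, 286 and 138, and 142 and 28 without L2-cKO ovary 1, 2 or 3.

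Titles number 2 WT spleens as 3. Same-numbered samples did not deviate together in the spleen (correlations −0.14, 0.09, 0.18 and −0.29). In the ovary their correlations were all above 0 (0.38, 0.21 and 0.07), beside −0.33 to 0.18 for the other combinations. The study's age-matched pairs cannot be assigned to animals from the labels, so the main tests are unpaired in each organ. Whether same-numbered ovaries form pairs cannot be told, and the ovary replicate block gives the counts if they do. The adjusted p of Rc3h2 was 0.0593 with the title-number block and 0.0843 with the other block, that of Dis3 0.0242 with the title-number block, and those of Cpeb2 and Cpeb3 0.0788 and 0.0627 with the other block. Among the 18 spleen and 20 ovary fold changes refitted, these turned direction: Xrn2 in the spleen was 0.0083 with no filter and 0.065 in males, and −0.057 to 0.030 on leaving libraries out, and in the ovary leaving libraries out gave −0.084 to 0.17 for Cnot1, −0.26 to 0.043 for Cnot6, −0.12 to 0.055 for Cnot6l, −0.086 to 0.010 for Pan2 and −0.17 to 0.14 for Xrn1. The cause of these shifts was not tested.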
